A study of Homo sapiens with 6 samples.

Results

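The RAB genes encode small GTPases that direct vesicle traffic between the membrane compartments of the cell. They were taken from an RNA sequencing study of cells labelled HK-2, the name of an established immortalised line of human kidney proximal tubule epithelium, as all rows whose gene symbol was RAB followed by a number and at most 1 letter from A to F. This pattern found 63 of the 33392 genes in the table, among them RAB1C, which is annotated as a processed pseudogene. All 6 libraries came from cells under TGF-β1, which drives matrix production and dedifferentiation of the tubule, and all carried a 48 h time point. Scramble siRNA was used for 3 libraries and siRNA against the kinase DYRK2 (siDYRK2) for the other 3, so the comparison asks which RAB transcripts change on DYRK2 silencing in stimulated cells. Unstimulated cells were not analysed here. Whether the siRNA was a single sequence or a pool, and whether the replicates were separate cultures, is not given in the sources used here, so p-values speak for the spread among these samples alone, and that spread may be technical.

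A RAB protein is a switch. In its GTP-bound form it sits on a particular membrane and recruits effectors that move, tether or fuse vesicles, and in its GDP-bound form it is drawn into the cytosol by a GDP dissociation inhibitor. Exchange factors load GTP, GTPase-activating proteins end the active state, and geranylgeranyl lipids attached to the C terminus hold the protein on the membrane. In tubular epithelium RAB proteins are known for the uptake, recycling and polarised delivery of receptors and transporters.

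Values are FPKM, fragment counts scaled to transcript length and library size, and therefore a level per length. The FPKM of a library summed to between 252318 and 255378, with 26.3% to 27.8% from mitochondrially encoded genes, and the number of sequenced fragments is unknown. DYRK2 itself, the siRNA target, was listed at 5.84, 6.06 and 5.96 FPKM in the scramble libraries and at 1.45, 1.54 and 1.49 FPKM in the siDYRK2 libraries. On average 25.1% of the scramble level was left (limma adjusted p = 2.0e-06). Of the cell type markers, all 6 epithelial genes had a mean over the 6 libraries of at least 0.5 FPKM, while 0 of 13 proximal tubule genes did, 3 of which had no row. Several epithelial genes differed between the groups. In the scramble and siDYRK2 libraries CDH1 (E-cadherin) had means of 2.97 and 1.17 FPKM and KRT18 of 123 and 87.3 FPKM. The means of KRT19 were 158 and 97.6 FPKM and those of KRT7 382 and 542 FPKM. KRT8, at means of 48.2 and 49.4 FPKM, and EPCAM, at 10.0 and 8.70 FPKM, had overlapping groups. The summed FPKM of all 6 epithelial genes was 718 to 734 and 768 to 808. PAX8, a renal transcription factor, averaged 0.183 and 0.0867 FPKM, and NKX2-1, which specifies lung and thyroid epithelium, averaged 26.5 and 23.4 FPKM in the scramble and siDYRK2 groups. The summed FPKM of the 10 proximal tubule genes with a row was 1.00 to 1.14 in the scramble and 0.860 to 1.14 in the siDYRK2 libraries. That of the 4 of 5 lung epithelial genes with a row was 30.4 to 33.9 and 28.2 to 29.4, most of it NKX2-1. Of the others, SFTPB averaged 3.65 and 4.03 FPKM, NAPSA 1.98 and 1.24 FPKM and SFTPC 0.02 and 0.0433 FPKM. By the same mean no fibroblast or endothelial marker reached 0.5 FPKM, although COL1A1 averaged 0.570 FPKM in the siDYRK2 group against 0.347 FPKM, and of the immune markers CD68 alone did. The low proximal tubule markers and the presence of NKX2-1 go against the labelled origin of the cells, so the values below describe cells labelled HK-2 whose identity is in doubt. The part of cell identity and of the shifts in epithelial genes in the results below was not tested.

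Of the 63 RAB genes, 50 averaged 0.5 FPKM or more over the 6 libraries and were tested, and 13 were below that level. By limma on log2(FPKM + 0.5), adjusted over all 15121 tested genes, 9 RAB genes rose and 12 fell with siDYRK2 while 29 were not called. The called share was 42% of the 50 tested members, against 38.3% of all tested genes. Called higher were 18% of these members against 20.4% of all tested genes, and called lower were 24% against 17.9%. The median log2 fold change of the tested members, siDYRK2 minus scramble, was 0.0019, and that of all tested genes was 0.0086. The ranges of scramble and siDYRK2 values were separate for 23 of the 50 members (46%), against 51.7% of all tested genes. Called with a log2 fold change of 0.5 or more in either direction were 5 members (10%), against 8.74% of all tested genes. These shares are near the background, so the counts are no result about the RAB genes as a group. Whether a lower value in such bulk samples means less RNA per cell or fewer cells that express the gene cannot be told apart.

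The call of 10 members, RAB27B, RAB15, RAB43, RAB8B, RAB5B, RAB31, RAB3A, RAB3D, RAB29 and RAB12, was kept under each of the 15 alternative analyses that tested it. The other 11 calls were lost under at least 1 of them. Leaving out scramble replicate 2 left 10 called members (4 higher and 6 lower), and a fit with the replicate number as a block left 13 (4 higher and 9 lower). RAB27B, RAB15, RAB43, RAB8B and RAB3A are the members called with a log2 fold change beyond 0.5 either way, and all of them are among the 10. RAB3A, the least abundant of them, had a log2 fold change of 0.90 with a pseudocount of 0.1 and 0.40 with a pseudocount of 1, so its place beyond 0.5 depends on the pseudocount. It was tested in 14 of the 15 alternatives.

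**Figure D1:**
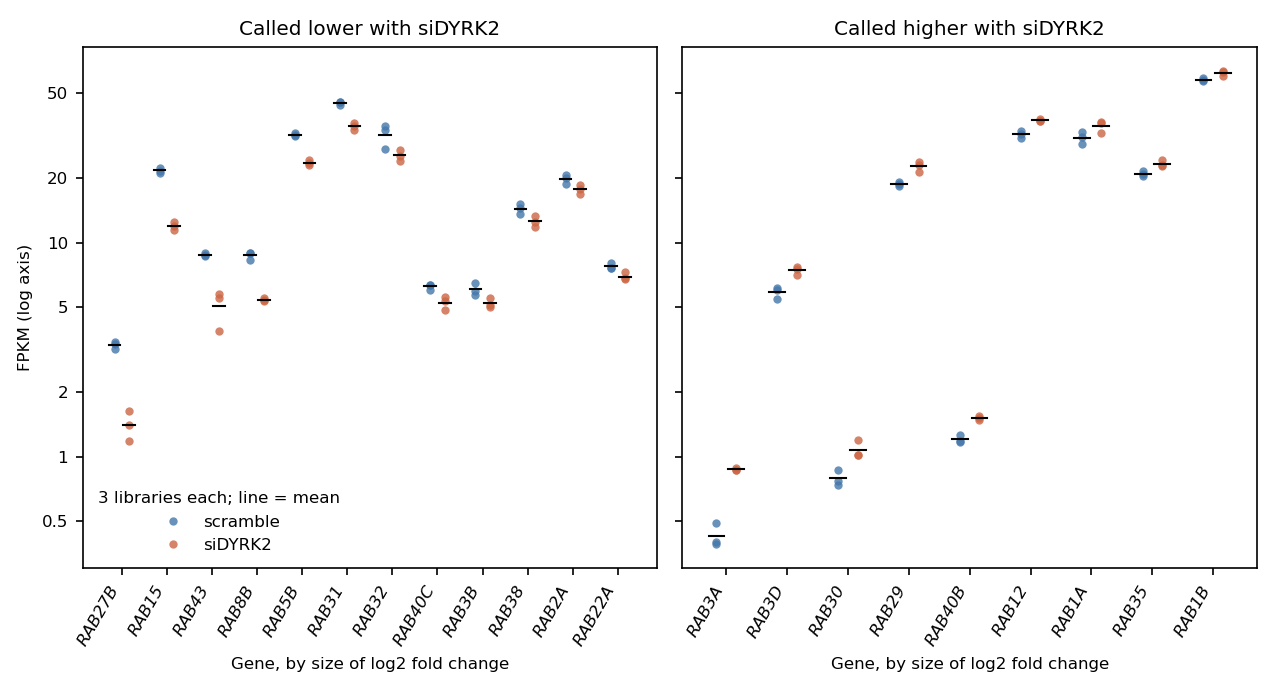
FPKM on a log axis of the 12 RAB genes called lower (left) and the 9 called higher (right), ordered by the size of the log2 fold change. Each point is 1 library, blue for scramble and orange for siDYRK2, and each line is the mean of 3. The points of the 2 groups overlap for RAB1A alone.

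Together the 63 RAB genes made up 0.305% to 0.325% of the summed FPKM of a library. Their summed FPKM was 810.2, 820.9 and 799.26 in the scramble libraries and 778.97, 796.08 and 781.88 in the siDYRK2 libraries. The siDYRK2 sums were all below the scramble sums, with means of 786 ± 9.15 and 810 ± 10.8 FPKM (SD, n = 3), and an exact two-sided permutation test gave p = 0.1, the smallest that 3 against 3 libraries allow. Without mitochondrially encoded genes the members made up 0.437681%, 0.441735% and 0.431979% of the summed FPKM in the scramble libraries. In the siDYRK2 libraries this share was 0.422504%, 0.432044% and 0.42466%, so the ranges overlapped, with siDYRK2 replicate 2 just above scramble replicate 3.

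The most abundant members were RAB1B, RAB10 and RAB34. RAB10, which acts in polarised exocytosis and in the insertion of glucose transporters, stood at 60.59, 62.11 and 56.97 FPKM in the scramble and at 56.25, 60.96 and 55.90 FPKM in the siDYRK2 libraries. RAB34, a Golgi and ciliary GTPase, stood at 45.17, 45.43 and 43.46 FPKM and at 45.07, 44.30 and 46.44 FPKM. The groups overlapped for both genes and neither was called (log2 fold changes −0.05 and 0.02, limma adjusted p = 0.41 and 0.69).

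**Figure D2:**
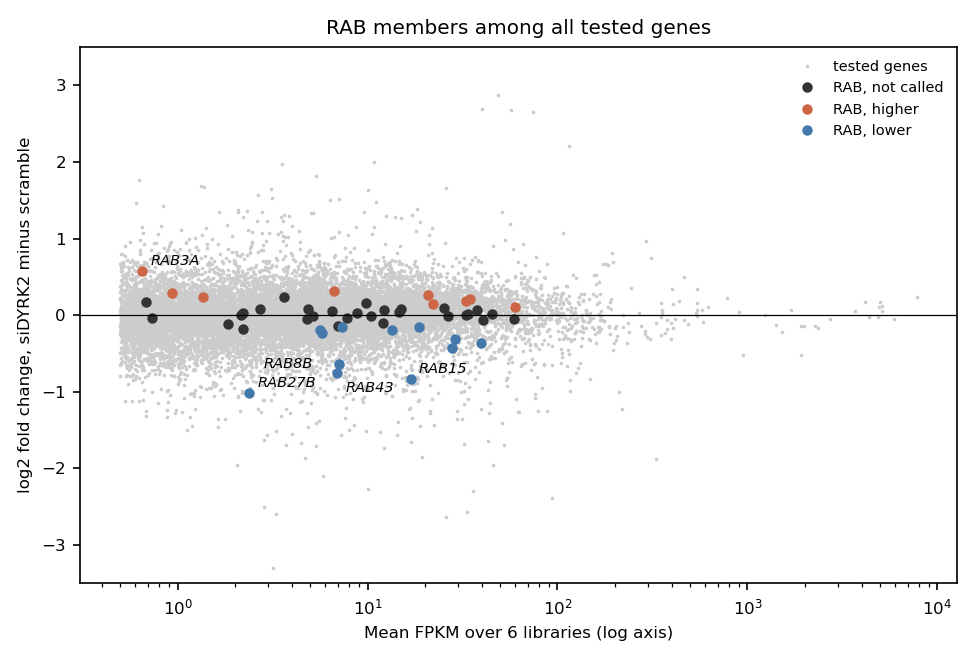
Log2 fold change (siDYRK2 minus scramble, on log2(FPKM + 0.5)) against mean FPKM on a log axis for all 15121 tested genes (grey) and the 50 tested RAB genes (coloured by call). RAB27B at −1.01 and RAB3A at 0.57 are the lowest and highest members, and most members lie close to 0.

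RAB1 and RAB2 proteins carry traffic between the endoplasmic reticulum and the Golgi, and RAB6, RAB30, RAB33B, RAB34 and RAB43 act at the Golgi. Of the 18 members in this group 12 were tested, of which 3 rose and 2 fell (41.7% called, against 38.3% of all tested genes). RAB1A stood at 32.66, 30.95 and 28.94 FPKM in the scramble and at 32.53, 36.31 and 36.54 FPKM in the siDYRK2 libraries. It was called higher (log2 fold change 0.18, SE 0.0603, limma adjusted p = 0.047), although siDYRK2 replicate 1 lay below scramble replicate 1. RAB1B stood at 58.54, 56.88 and 57.23 FPKM and at 63.44, 59.93 and 62.73 FPKM (log2 fold change 0.11, SE 0.0322, limma adjusted p = 0.035). All siDYRK2 values of RAB1B exceeded all scramble values, yet the rise was 1.08-fold. Both calls were lost in 9 of the 15 alternatives, with log2 fold changes that stayed above 0 in all of them.

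RAB43, which is known for retrograde and secretory traffic at the Golgi, fell 1.74-fold. It stood at 8.78, 8.95 and 8.63 FPKM with scramble and at 3.86, 5.77 and 5.54 FPKM with siDYRK2 (log2 fold change −0.76, SE 0.130, limma adjusted p = 0.0035). The groups were far apart, and siDYRK2 replicate 1 was the lowest library. In that library alone the table lists ISY1-RAB43, a read-through gene that shares exons with RAB43, at 2.27 FPKM, and at 0 in the other 5. With the read-through row added, the siDYRK2 values were 6.13, 5.77 and 5.54 FPKM, and the mean was 1.51-fold below scramble (exact two-sided permutation p = 0.1, the smallest possible here). RAB43 spans chr3:129087569-129122801 on the minus strand of GRCh38.

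RAB30, a Golgi GTPase, was low and was called higher, at 0.74, 0.87 and 0.77 FPKM with scramble and 1.02, 1.02 and 1.20 FPKM with siDYRK2 (log2 fold change 0.29, limma adjusted p = 0.047). That call was lost in 8 of 14 alternatives, including each one that left out a library. RAB2A stood at 19.97, 20.66 and 18.73 FPKM and at 16.90, 18.58 and 17.79 FPKM (log2 fold change −0.15, limma adjusted p = 0.049). The groups of RAB2A lay side by side without overlap, and its call was lost in 9 of the 15 alternatives. RAB6A, which drives retrograde transport to the Golgi and endoplasmic reticulum, stood at 40.44, 41.73 and 42.02 FPKM and at 39.86, 41.43 and 37.71 FPKM and was not called (limma adjusted p = 0.27). RAB2B, RAB6B, RAB18, RAB33B and RAB39B were not called either, with log2 fold changes from −0.14 (RAB2B) to 0.24 (RAB39B). RAB6C, RAB19, RAB33A, RAB36, RAB39A and RAB41 were below the filter. The pseudogene RAB1C and the gene RAB6D, further copies that were put in no group, were also below it. Reads of RAB1A with RAB1C and of RAB6A with RAB6C and RAB6D may be shared, so the low values of the copies are uncertain.

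Early endosomes fuse under the control of the RAB5 proteins, and RAB22A, RAB31 and RAB21 serve neighbouring endosomal routes. All 8 members of this group were tested, of which 3 fell and 0 rose by limma at an adjusted p under 0.05. This was 37.5% called, against 38.3% of all tested genes. The same 3 were the only ones with an unadjusted p under 0.05. RAB5B stood at 32.64, 31.31 and 31.89 FPKM with scramble and at 24.23, 23.48 and 22.98 FPKM with siDYRK2. This was a 1.36-fold fall (log2 fold change −0.43, SE 0.0338, limma adjusted p = 1.2e-04) and the groups were well separated. Its paralogues were not called. RAB5A stood at 13.34, 15.49 and 14.58 FPKM and at 14.90, 15.34 and 14.62 FPKM, and RAB5C at a mean of 33.7 ± 1.63 and 34.0 ± 0.666 FPKM (SD, n = 3), with overlapping groups for both (limma adjusted p = 0.54 and 0.81).

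RAB31, which sorts cargo between the trans-Golgi network and endosomes, stood at 43.87, 45.34 and 45.14 FPKM with scramble and at 35.11, 36.01 and 33.40 FPKM with siDYRK2. It fell 1.29-fold, with every siDYRK2 value below every scramble value (log2 fold change −0.36, SE 0.0364, limma adjusted p = 3.6e-04). RAB22A, another GTPase of endosomal sorting, averaged 7.75 ± 0.212 and 6.94 ± 0.293 FPKM (SD, n = 3; limma adjusted p = 0.039). Its call did not survive 8 of the 15 alternatives. RAB17, RAB20 and RAB21 were not called, with log2 fold changes of −0.12, 0.08 and −0.0068.

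Recycling to the plasma membrane and polarised exocytosis use RAB4, RAB8, RAB10, RAB11, RAB13, RAB14, RAB15, RAB25 and RAB35. Of the 11 tested members of this group 1 rose and 2 fell (27.3% called, against 38.3% of all tested genes). RAB15, which acts at recycling endosomes, stood at 21.23, 21.57 and 22.41 FPKM with scramble and at 12.41, 11.96 and 11.46 FPKM with siDYRK2. It had the smallest adjusted p of the RAB genes, with a 1.82-fold fall (log2 fold change −0.84, SE 0.0414, limma adjusted p = 1.6e-05) and no siDYRK2 value above 12.41. RAB8B stood at 8.92, 8.91 and 8.31 FPKM and at 5.37, 5.34 and 5.51 FPKM. The fall of RAB8B was 1.61-fold (log2 fold change −0.64, SE 0.0447, limma adjusted p = 7.0e-05). RAB8A, its paralogue in exocytosis and ciliary membrane delivery, stood at 9.66, 9.24 and 8.75 FPKM and at 10.35, 9.72 and 11.05 FPKM, so that its siDYRK2 values all lay above its scramble values without reaching the threshold (log2 fold change 0.16, limma adjusted p = 0.064).

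RAB35, which recycles cargo from endosomes to the cell surface, stood at 21.57, 20.83 and 20.49 FPKM and at 22.67, 23.06 and 24.29 FPKM. The groups did not overlap (log2 fold change 0.15, SE 0.0387, limma adjusted p = 0.019), and the call was lost in 4 of the 15 alternatives. RAB11A, the main GTPase of the recycling endosome, stood at 15.16, 14.17 and 14.22 FPKM and at 14.89, 15.64 and 15.56 FPKM with overlapping groups (limma adjusted p = 0.17). RAB4A, RAB11B, RAB13 and RAB14 were not called, with log2 fold changes from 0.0042 (RAB13) to 0.09 (RAB14). RAB25, an epithelial relative of RAB11A, had a highest value of 0.09 FPKM.

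RAB4B varied more between replicates than any shift between groups, at 1.96, 1.45 and 2.98 FPKM with scramble and 2.91, 1.05 and 2.87 FPKM with siDYRK2. The read-through gene RAB4B-EGLN2, which contains RAB4B exons, was listed at 8.11, 4.85 and 0 FPKM and at 0.04, 7.73 and 3.09 FPKM in the same libraries. The 3 libraries with the lowest RAB4B values were the 3 with the highest RAB4B-EGLN2 values. RAB13 shares its locus with a read-through gene (AL358472.6) of 31.1 and 29.4 FPKM. Such rows divide reads in a way that cannot be checked from FPKM.

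The late endosome, the lysosome and autophagosomes are served by RAB7A, RAB9A, RAB12, RAB24 and RAB29 in this grouping, with RAB32 and RAB38 on lysosome-related organelles. Of the 7 tested members 2 rose and 2 fell (57.1% of a small group called, against 38.3% of all tested genes). RAB7A, the central GTPase of late endosomes and lysosomes, stood at 27.37, 26.73 and 25.98 FPKM with scramble and at 26.43, 26.33 and 26.92 FPKM with siDYRK2. Its log2 fold change was −0.0068 (SE 0.0321, limma adjusted p = 0.89), with the siDYRK2 values inside the scramble range. RAB29, which recruits the kinase LRRK2 to membranes, stood at 18.45, 18.84 and 19.18 FPKM and at 23.04, 23.68 and 21.35 FPKM. RAB29 rose 1.21-fold with separate groups (log2 fold change 0.26, SE 0.0446, limma adjusted p = 0.0035).

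RAB12, which directs recycling receptors to degradation, stood at 32.03, 33.19 and 30.69 FPKM and at 36.84, 37.93 and 36.83 FPKM. It rose 1.16-fold, and its siDYRK2 values clustered above the scramble values (log2 fold change 0.22, SE 0.0368, limma adjusted p = 0.0035). RAB32 stood at 27.21, 35.11 and 33.44 FPKM and at 24.16, 25.24 and 27.12 FPKM. Scramble replicate 1 of RAB32 lay next to the siDYRK2 values, so the groups barely separated (log2 fold change −0.31, SE 0.0936, limma adjusted p = 0.035). The log2 fold change was −0.42 without scramble replicate 1, and the call was lost in 6 of the 15 alternatives. RAB38, its paralogue on melanosomes and related organelles, averaged 14.4 ± 0.792 FPKM with scramble and 12.6 ± 0.745 FPKM with siDYRK2 (n = 3 each, SD). Its log2 fold change was −0.19 (limma adjusted p = 0.035), also with 6 alternatives in which it was not called. RAB9A, which returns mannose 6-phosphate receptors to the Golgi, and RAB24 were not called, and RAB7B and RAB9B were below the filter.

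RAB3 and RAB27 proteins dock secretory vesicles, and RAB27B is known for its part in the release of exosomes from multivesicular endosomes. Of the 6 tested members of the regulated secretion group 2 rose and 2 fell, while RAB37 was below the filter. The called share of this small group was 66.7%, against 38.3% of all tested genes. RAB27B had the largest fall of all RAB genes. It stood at 3.44, 3.38 and 3.20 FPKM with scramble and at 1.41, 1.63 and 1.19 FPKM with siDYRK2, a 2.37-fold fall (log2 fold change −1.01, SE 0.0927, limma adjusted p = 2.3e-04). Every scramble value was at least 3.20 and every siDYRK2 value at most 1.63. RAB27A, its paralogue, stood at 2.37, 2.47 and 2.30 FPKM and at 2.05, 2.38 and 1.76 FPKM with overlapping groups (log2 fold change −0.17, limma adjusted p = 0.19). RAB26 was not called.

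RAB3A was the member with the largest rise, from a low level. It stood at 0.40, 0.49 and 0.39 FPKM with scramble and at 0.89, 0.87 and 0.87 FPKM with siDYRK2 (log2 fold change 0.57, SE 0.0983, limma adjusted p = 0.0036). The scramble mean of 0.427 FPKM was below the filter level, so RAB3A was tested because of its siDYRK2 values, and it overlaps MPV17L2 on the other strand, which fell from 9.58 to 7.96 FPKM. RAB3D stood at 6.14, 5.98 and 5.46 FPKM and at 7.52, 7.66 and 7.07 FPKM. It overlaps TMEM205 on the same strand (means 22.3 and 20.8 FPKM) and CCDC159 on the other (1.09 and 0.917 FPKM). How reads were divided among them cannot be checked from FPKM. The same limit holds for RAB5B, RAB1A and RAB35, which overlap genes on the other strand. In the scramble and siDYRK2 groups AC034102.1, at RAB5B, averaged 6.09 and 6.06 FPKM. CEP68, at RAB1A, averaged 3.20 and 3.37 FPKM, and AC004812.2, at RAB35, 1.55 and 1.33 FPKM. RAB3D rose 1.27-fold with separate groups (log2 fold change 0.32, SE 0.0566, limma adjusted p = 0.0043). RAB3B went the other way, with a mean of 6.05 ± 0.402 FPKM in scramble and 5.22 ± 0.279 FPKM in siDYRK2 libraries (n = 3 each, SD). Its log2 fold change of −0.20 (limma adjusted p = 0.042) missed the threshold under 8 of the 15 alternatives.

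The ciliary members RAB23, a negative regulator of Hedgehog signalling, and RAB28 were not called (log2 fold changes −0.01 and −0.11). RAB40 proteins carry a SOCS box and serve cullin ubiquitin ligases as substrate receptors. RAB40B stood at 1.27, 1.17 and 1.19 FPKM with scramble and at 1.48, 1.55 and 1.51 FPKM with siDYRK2 (log2 fold change 0.24, limma adjusted p = 0.035). RAB40C stood at 6.35, 6.37 and 6 FPKM and at 5.58, 5.31 and 4.82 FPKM (log2 fold change −0.23, limma adjusted p = 0.020). The groups of both genes were separate and went opposite ways, and the calls were lost in 8 and 2 of the 15 alternatives. RAB40A and RAB42 were not called, and RAB44 was listed at no more than 0.01 FPKM.

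**Figure D3:**
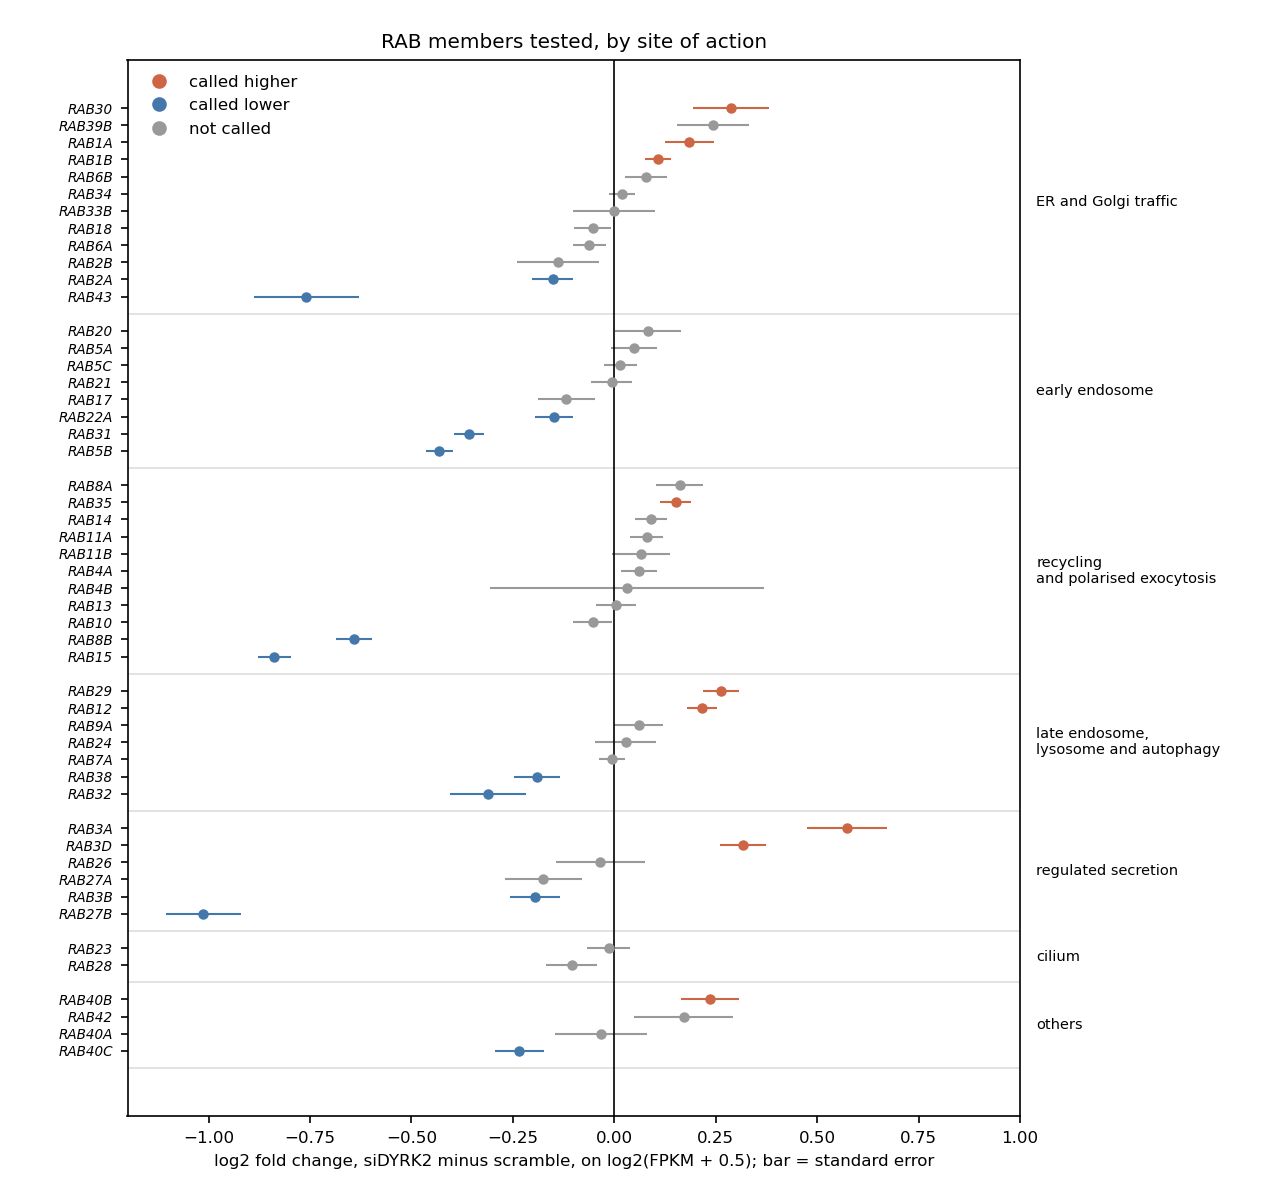
Log2 fold change (siDYRK2 minus scramble, on log2(FPKM + 0.5)) of the 50 tested RAB genes, grouped by the site where each protein acts. Points are the fitted values, bars the standard error, and colours the limma call at an adjusted p under 0.05; each group with a called member, except the early endosome, holds called members on both sides of 0.

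Within several sets of close paralogues the members' shares of the summed FPKM differed between the groups. RAB8B made up 48.6% ± 0.549 of the summed RAB8A and RAB8B FPKM with scramble and 34.3% ± 1.10 with siDYRK2 (SD, n = 3). RAB27B made up 58.4% ± 0.737 of the RAB27A and RAB27B sum and then 40.6% ± 0.215 (SD, n = 3). RAB27A was thus the minor paralogue in all scramble and the major one in all siDYRK2 libraries. RAB5B dropped from 39.9% ± 1.70 to 32.5% ± 0.603 of the RAB5 sum (SD, n = 3), and that sum was 80.1 ± 1.93 and 72.6 ± 0.697 FPKM. RAB3D was 47.5% ± 2.24 and 54.9% ± 2.11 of the RAB3 sum, and RAB3B 49.1% ± 2.08 and 38.6% ± 2.14 (SD, n = 3). RAB6B was 10.3% ± 0.118 and 11.2% ± 0.338 of the RAB6A and RAB6B sum (SD, n = 3). RAB40B was 14.8% ± 0.601 and 20.3% ± 1.19 of the RAB40 sum, and RAB40C 76.1% ± 1.78 and 70.1% ± 1.79 (SD, n = 3). In RAB1, RAB2, RAB4 and RAB11 the shares of the groups overlapped. Each of the shares given for RAB3, RAB5, RAB6, RAB8, RAB27 and RAB40 separated the groups with an exact two-sided permutation p of 0.1, the smallest possible, or 0.16 after Benjamini-Hochberg adjustment over the 34 sums and shares computed, so none could pass a threshold of 0.05. The sets were formed from the gene names after the values were known.

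**Figure D4:**
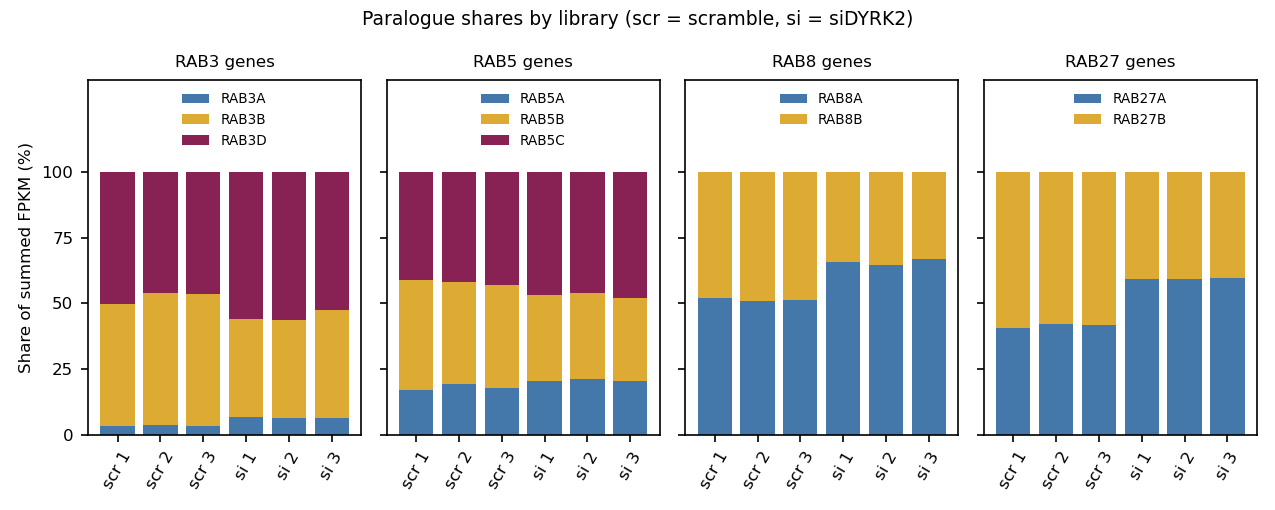
Share of each paralogue in the summed FPKM of the RAB3, RAB5, RAB8 and RAB27 genes, with 1 bar per library (scr, scramble; si, siDYRK2). RAB8B shrinks from 48.6% to 34.3% and RAB27B from 58.4% to 40.6% on average, and the bars of a group resemble each other.

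The promoters of RAB8A and RAB8B, paralogues at similar scramble levels of which 1 fell, and those of RAB5B and RAB27B are shown with the motifs found in them. Each sequence runs 5′ to 3′ on the strand of the gene from 250 bases before to 50 after the transcript start in RefSeq (GRCh38.p14). Capitals mark matches on either strand to CACGTG (the E-box core), TGANTCA (AP-1), CCAAT (the NF-Y box) or GGGCGG (the GC box bound by SP1), where N is any base.
RAB8A (chr19:16111639-16111938, plus strand): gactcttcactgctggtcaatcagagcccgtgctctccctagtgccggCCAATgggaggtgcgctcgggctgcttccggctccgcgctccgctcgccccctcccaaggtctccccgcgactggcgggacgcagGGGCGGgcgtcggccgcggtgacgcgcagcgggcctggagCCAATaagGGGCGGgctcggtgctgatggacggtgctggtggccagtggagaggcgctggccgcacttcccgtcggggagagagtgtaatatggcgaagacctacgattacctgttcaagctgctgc
RAB8B (chr15:63189356-63189655, plus strand): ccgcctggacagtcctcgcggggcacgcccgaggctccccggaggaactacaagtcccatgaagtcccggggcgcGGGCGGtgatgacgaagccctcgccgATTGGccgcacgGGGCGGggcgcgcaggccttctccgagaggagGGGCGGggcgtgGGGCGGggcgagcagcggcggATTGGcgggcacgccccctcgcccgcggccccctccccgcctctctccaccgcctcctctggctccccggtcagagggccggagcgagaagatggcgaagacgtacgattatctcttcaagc
RAB5B (chr12:55973699-55973998, plus strand): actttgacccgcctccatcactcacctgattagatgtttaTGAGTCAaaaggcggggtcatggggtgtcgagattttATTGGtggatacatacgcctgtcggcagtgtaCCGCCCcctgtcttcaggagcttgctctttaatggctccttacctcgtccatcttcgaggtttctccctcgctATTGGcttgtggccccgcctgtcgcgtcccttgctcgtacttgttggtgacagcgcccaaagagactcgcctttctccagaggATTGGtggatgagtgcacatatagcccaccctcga
RAB27B (chr18:54717607-54717906, plus strand): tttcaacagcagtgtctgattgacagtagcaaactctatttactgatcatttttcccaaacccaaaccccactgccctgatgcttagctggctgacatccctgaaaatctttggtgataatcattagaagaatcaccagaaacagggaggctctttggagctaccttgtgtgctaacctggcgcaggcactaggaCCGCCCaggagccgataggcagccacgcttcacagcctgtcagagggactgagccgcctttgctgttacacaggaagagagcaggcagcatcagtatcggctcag

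An entry was found for 49 of the 63 members, among them 9 of the 12 called lower and 7 of the 9 called higher. The GC box was present in 39 of the 49 promoters (79.6%), against 44.6% of 27305 promoters of the same length. The 41 tested members with an entry had a median GC content of 66.7%, against 58.3% over all 27305. Those 27305 promoters were not limited to genes expressed in these libraries. The GC box was found in all 9 available promoters of members called lower, in 5 of 7 called higher and in 21 of 25 of those tested and not called. CCAAT was present in 13 of 49 (26.5% against 35.7% of all), the E-box core in 6 (12.2% against 7.43%) and AP-1 in 3 (6.12% against 7.76%). RAB5B has 3 CCAAT matches and 1 AP-1 match, RAB8A and RAB8B have 2 CCAAT matches each, and RAB27B has a single GC box and no match to the others. RAB3B is the other member called lower with an AP-1 match. These matches describe letters in the window and not bound sites.

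A further sequence feature was looked at in the 3′ untranslated regions. Across all genes of these libraries, lower values with siDYRK2 went with the 7-base words ATCTATA and CATCTAT there, of which the 8-base word ATCTATA preceded by C contains both. The words were chosen with that association known, so their occurrence in the members is a description and supports nothing. With 1 GENCODE v29 transcript per gene, 11626 tested genes had a 3′ untranslated region of at least 50 bases. Of these, 1735 held a word, and 29.5% of those with a word were called lower against 16.7% of those without. Of the 50 tested RAB genes 13 held a word, of which 6 were called lower, 2 higher and 5 were not called. Of the 37 without a word 6 were called lower and 7 higher. Over all 11626 genes, 16.8% of those with a word and 26.2% of those without were called higher. In the RAB genes these shares were 15.4% and 18.9%. The untranslated regions with a word were longer, with a median of 4151 against 1352 bases in the RAB genes and 2962 against 911 bases over all 11626 genes. The part of length in these shares was not tested. RAB8B, RAB31, RAB15, RAB22A, RAB3B and RAB2A were the members with a word that fell. RAB27B, RAB43, RAB5B, RAB32, RAB40C and RAB38 fell without one, and RAB1A and RAB30 were called higher with one. Sites in 4 members that fell, in RAB10 and RAB11A, which were not called, and in RAB1A, which was called higher, are shown 5′ to 3′ as DNA letters of the transcript on GRCh38, with the word in capitals.
RAB8B (chr15:63264284-63264308, plus strand): ctctgcctaATCTATAgaaactgca
RAB31 (chr18:9860767-9860791, plus strand): ttattgacaATCTATAtcgcaaaag
RAB15 (chr14:64945849-64945873, minus strand): agcagggttCATCTATtttaaacac
RAB22A (chr20:58362419-58362444, plus strand): acatactccCATCTATAaacatgttt
RAB10 (chr2:26135428-26135452, plus strand): gtccctataATCTATAgacatgtga
RAB11A (chr15:65888607-65888631, plus strand): atttaaatgATCTATAataatttcc
RAB1A (chr2:65086881-65086905, minus strand): tcaattttcCATCTATgaaaatttc

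Of 10 genes for prenylation and membrane extraction, which included relatives of the PRA1 and Yip membrane proteins, 2 rose and 4 fell, a called share of 60% against 38.3% of all tested genes. GDI2, a GDP dissociation inhibitor, fell from a mean of 41.2 ± 2.70 to 35.5 ± 2.10 FPKM (n = 3 each, SD; adjusted p = 0.029 by limma). RABAC1, the PRA1 protein that interacts with many RAB proteins, rose 1.34-fold from 11.7 to 15.7 FPKM. PRAF2, of the same family, fell from 2.43 to 1.29 FPKM and YIPF3 from 33.9 to 29.02 FPKM. RABGGTB, the catalytic subunit of the geranylgeranyl transferase, fell from 15.2 to 13.3 FPKM (limma adjusted p = 0.035), and the escort proteins CHM and CHML were not called. The calls of GDI2 and RABGGTB were each lost in 7 of the 15 alternatives.

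Of 50 tested exchange factors 6 rose and 8 fell, so that 28% were called against 38.3% of all genes. Several act on members described above, and whether exchange factors changed along with the members they act on was not tested. RAB3IL1, an exchange factor for RAB8 and RAB3A, fell from a mean of 12.6 ± 0.835 to 8.29 ± 0.136 FPKM (n = 3 each, SD; log2 fold change −0.57, adjusted p = 2.4e-04 by limma). DENND3, which activates RAB12, rose from a mean of 3.67 ± 0.0985 to 5.52 ± 0.0929 FPKM (n = 3 each, SD; log2 fold change 0.53, adjusted p = 1.8e-04 by limma). HPS1, which with HPS4 forms the exchange factor for RAB32 and RAB38, fell from a mean of 4.39 ± 0.0400 to 2.73 ± 0.225 FPKM (n = 3 each, SD; log2 fold change −0.60, adjusted p = 4.4e-04 by limma). HPS4, named after its value was seen, fell from 3.33 to 2.76 FPKM (limma adjusted p = 0.028). RIN1, which activates RAB5, fell from 7.72 to 5.54 FPKM. TRAPPC1, a subunit of the TRAPP complexes that activate RAB1, rose from 30.4 to 36.9 FPKM, and ANKRD27, an exchange factor for RAB21, rose from 9.53 to 11.6 FPKM.

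Of 35 tested GTPase-activating proteins 7 rose and 7 fell (40%, against 38.3% of all tested genes). EVI5L rose from 4.78 to 6.45 FPKM, and its relative EVI5 fell from 1.90 to 1.13 FPKM. TBC1D17, which acts on RAB8 together with optineurin, fell from a mean of 9.71 ± 0.572 to 6.25 ± 0.529 FPKM (n = 3 each, SD; log2 fold change −0.60, adjusted p = 6.7e-04 by limma). TBC1D5, a regulator of RAB7 and of retromer, fell from 10.96 to 9.06 FPKM. TBC1D1, known for its control of glucose transporter traffic, rose from 5.60 to 7.03 FPKM and TBC1D13 from 11.7 to 13.8 FPKM.

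Of 57 tested effectors 5 rose and 10 fell, 26.3% in all, against 38.3% of all tested genes. OPTN (optineurin), an autophagy receptor that binds RAB8, fell from a mean of 35.3 ± 1.35 to 25.9 ± 1.48 FPKM (n = 3 each, SD; log2 fold change −0.44, adjusted p = 5.9e-04 by limma). MICAL2, of a family of actin-oxidising enzymes, fell from 10.2 to 7.62 FPKM and RAB11FIP2, a RAB11 effector in recycling, from 8.81 to 6.67 FPKM. PLEKHM1, a RAB7 effector at the lysosome, fell from 3.99 to 2.94 FPKM. EHBP1L1, a RAB8 effector, fell from 21.9 to 18.5 FPKM and ACAP2, a RAB35 effector, from 10.6 to 8.88 FPKM. For these 6 effectors all siDYRK2 values were below all scramble values. They were named for their small adjusted p, and the groups were separate for 51.7% of all tested genes. Among 10 tested Rab-like GTPases outside the name pattern RABL6 and RASEF rose and RABL2A and RABL2B fell, the last pair being near-identical genes whose reads may be shared. The called share of these 10 was 40%, near the 38.3% of all tested genes.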

How the data were processed

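RNA for 6 HK-2 libraries, 3 per group, was extracted with Trizol, treated with DNase I and sequenced by Illumina, per the labels' protocols. HISAT2, StringTie and the build GRCh38 are listed, with no version or role, per the submitters' processing notes. Not given in the sources used here are strandedness, the annotation and the treatment of reads with several matches. Deposited values are FPKM computed by the authors, 1 column per library with 2 groups, and 0 further columns of per-sample values were present. Columns were matched to samples by library name, and no pair of columns was identical. FPKM is relative to the library, so a shift in abundant transcripts moves all others.

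Symbols were those of the table, which gives 8462 of 33392 rows an Ensembl identifier only. The test was limma 3.58.1 (R 4.3.3) on log2(FPKM + 0.5) for genes whose mean reached 0.5 FPKM, with a mean-variance trend, no covariate and Benjamini-Hochberg adjustment over all tested genes at 0.05. The fit was tested on simulated data. Fold values are ratios of mean FPKM, and single values per library were compared by exact permutation tests. In 7952 single-transcript genes, 26.1% to 29.3% of low values lay within 0.1 of a whole multiple of the best step, against 20% by chance, so whole reads were not recovered and depth is unknown. Same-numbered libraries of the groups had deviations correlated at −0.088 to 0.024 across genes, so replicate numbers were not treated as pairs.

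The members, role groups and partner lists were chosen with earlier results of these data known. Named members are all called ones, with values per library for the 8 largest changes each way, for RAB1A, RAB2A, RAB5A, RAB6A, RAB7A, RAB8A, RAB11A and RAB27A, and for the 3 most abundant; from each partner list up to 6 called genes with the smallest adjusted p are named, except 1 that is not reported here. Positions and 3′ untranslated regions came from GENCODE v29, taking per gene the protein-coding transcript of the best APPRIS level and, among equals, the longest 3′ untranslated region, leaving out regions under 50 bases. Python 3.11.15 was used with scipy 1.17.1 and pandas 2.3.3. Alternatives changed the pseudocount, the filter, the scaling and the variance model, added a replicate block or left out each library.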

Additional observations from a re-analysis of the deposited data

How the results depend on the processing

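All 21 member calls kept their direction under the 15 alternatives, and 10 kept the threshold in every alternative that tested them. The DYRK2 call held throughout. Without a filter on low values 12 members were called (5 higher, 7 lower), and 9 effectors. With the replicate block, although the numbers did not pair the samples, 13 were called (4 higher, the rest lower). Without a mean-variance trend 7 members were called lower. Leaving out 1 library gave 10 to 17 called members, 4 to 7 of them higher and 6 to 10 lower, and 2 to 3 Rab-like GTPases. Scramble replicate 2 gave the lowest member counts. Of the members that were not called, RAB39B (log2 fold change 0.24) was called in 2 alternatives and RAB8A (0.16) in 1, each of which left out a library. Others changed sign. Leave-one-out values ran from −0.0022 to 0.13 for RAB11B, −0.033 to 0.044 for RAB13, −0.036 to 0.021 for RAB21, −0.059 to 0.023 for RAB23, −0.026 to 0.096 for RAB24, −0.14 to 0.070 for RAB26, −0.071 to 0.11 for RAB33B, −0.0012 to 0.034 for RAB34, −0.10 to 0.059 for RAB40A, −0.16 to 0.41 for RAB4B, −0.0072 to 0.097 for RAB5A, −0.022 to 0.047 for RAB5C and −0.026 to 0.011 for RAB7A. Quantile normalisation gave −0.014 for RAB13 and 0.031 for RAB33B. Rescaling without mitochondrial genes gave 0.00080 for RAB21, 0.0063 for RAB33B and 0.0014 for RAB7A, and a pseudocount of 1 gave 0.00065 for RAB33B. The cause of these changes was not tested. The unknown depth limits what can be said of the 13 members below the filter.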
